A study of Homo sapiens with 6 samples.

Results

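The ADAM, ADAMTS and ADAMTSL genes encode metalloproteases and their relatives that act at the cell surface and in the extracellular matrix. Members were the protein-coding rows of the deposited gene table whose symbol is ADAM, ADAMTS or ADAMTSL followed only by digits, which gave 44 of 57819 rows: 20 ADAM, 19 ADAMTS and 5 ADAMTSL genes. The set was proposed because ADAM12 differed strongly between the groups of this study, so its values are given as a description without a test. ADAM12 is left out of every count of members that passed, while counts out of all 44 genes include it. The question for the other 43 genes, called relatives here, was whether they moved with it.

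PolyA RNA was sequenced from IMR90 cells, a human lung fibroblast line in long use, that carry ER:Ras, an oncogenic Ras joined to the part of the estrogen receptor that binds 4-hydroxytamoxifen (4OHT), so that the drug switches Ras on. All 6 libraries came from cells given 200 nM 4OHT for 3 days, which the series title describes as senescent. The control group (3 libraries) received the scrambled siRNA siSCR, and the knockdown group (3 libraries) siRNA against sin-lncRNA, a long noncoding RNA. All knockdown libraries carry the same siRNA name, so other effects of that reagent cannot be told apart from loss of sin-lncRNA. Vehicle-treated cells were not analysed here, so every value describes a knockdown within 4OHT-treated, Ras-induced cells of 1 line. The labels do not say whether the replicates were separate cultures, so p-values measure only the spread between these libraries, which may be technical.

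ADAMs are mostly membrane-anchored proteins with a prodomain, a metalloprotease domain and a disintegrin domain. The catalytic ones, with a zinc-binding histidine motif, cut the extracellular part off membrane proteins, a step called shedding that releases growth factors, cytokines and receptors. ADAMTS proteases are secreted, carry thrombospondin repeats and process matrix proteins such as the proteoglycans aggrecan and versican, procollagens and von Willebrand factor. ADAMTSL proteins resemble the noncatalytic end of ADAMTS proteases and lack the protease domain. In fibroblasts these enzymes are known for matrix turnover and for the release of signalling proteins.

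The libraries held 22117324 to 50913672 reads assigned to genes, and all 3 knockdown libraries were shallower than any of the controls, so depth and group cannot be told apart. The targeted transcript stood at 4.17 ± 0.52 RPM (reads scaled to library size by the authors' factors; SD, n = 3) in controls and at 0.556 ± 0.076 (SD, n = 3) after knockdown, a log2 fold change of -2.86 (SE 0.18, limma adjusted p = 7.9e-07). All 10 fibroblast markers reached 1 RPM, and their summed level was lower after knockdown (13210 to 14320) than in controls (17130 to 19110). The markers did not move together: COL1A1, COL1A2, VIM, PDGFRB and DCN were lower after knockdown in all libraries, COL3A1, THY1, FAP and LUM were higher, and COL6A1 overlapped between groups. Marker sums of other cell types were low: 3.12 to 5.10 RPM for 6 epithelial genes (KRT5 at 0), 5.16 to 6.40 for 3 endothelial genes (nearly all from TEK), 0.128 to 0.249 for 5 blood genes (HBB at 0) and 7.02 to 8.20 for 3 muscle genes (MYOD1 at 0). Of these, only the epithelial sum did not overlap between groups, being 4.35 to 5.10 in controls and 3.12 to 3.63 after knockdown, nearly all from CLDN4. The part of these marker levels in the results was not tested. In bulk RNA, fewer cells of a type and less RNA per cell cannot be told apart.

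ADAM12 is a membrane-bound and secreted protease that cleaves insulin-like growth factor binding proteins and the precursor of heparin-binding EGF, and it is low in most adult tissues. ADAM12 (ENSG00000148848.10, hg19 chr10:127700950-128077024, minus strand) stood at 7.05, 10.8 and 7.95 RPM in control libraries 1, 2 and 3, and at 56.2, 62.3 and 59.1 in knockdown libraries 1, 2 and 3. The lowest knockdown library thus lay far above the highest control library, and the 3 knockdown libraries were close to each other. The means were 8.61 ± 1.97 and 59.2 ± 3.06 (SD, n = 3 each), a log2 fold change of 2.80 or 6.98-fold. The values rest on 240, 325 and 400 reads in controls and 1254, 1460 and 1659 after knockdown. Among all reads of the 44 genes, ADAM12 took 0.345 to 0.476% in controls and 2.05 to 2.24% after knockdown. Per length it went from 0.873 to 6.005 RPKM (RPM per kilobase of exon), rank 10 in the family by the mean over both groups.

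To show what lies in front of the gene that stood out, the 250 bases upstream of its RefSeq start are printed here beside those of ADAM17, the catalytic ADAM with the next highest change, of ADAM19, the closest relative by protein, and of ADAM15, which went the other way. ADAM15 and the choice of these 4 sequences were made after their values were seen. Capitals mark matches, on either strand, to GGGCGG (the GC box, CCGCCC when read from the other strand) and to GCGTG (the core bound by the aryl hydrocarbon receptor); each sequence reads 5′ to 3′ along its gene in GRCh38.p14, at chr10:126388478-126388727 (minus strand), chr2:9555831-9556080 (minus), chr5:157575776-157576025 (minus) and chr1:155051066-155051315 (plus).
ADAM12: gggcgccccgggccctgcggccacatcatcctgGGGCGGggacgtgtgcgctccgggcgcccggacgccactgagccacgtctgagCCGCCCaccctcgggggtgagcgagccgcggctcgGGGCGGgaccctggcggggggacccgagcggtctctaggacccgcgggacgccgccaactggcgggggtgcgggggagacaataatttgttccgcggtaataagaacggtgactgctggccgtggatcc
ADAM17: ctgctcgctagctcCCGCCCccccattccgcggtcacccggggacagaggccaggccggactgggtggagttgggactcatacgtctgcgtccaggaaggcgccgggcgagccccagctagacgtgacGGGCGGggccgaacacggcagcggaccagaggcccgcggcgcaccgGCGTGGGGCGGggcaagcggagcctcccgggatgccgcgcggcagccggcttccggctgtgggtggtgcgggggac
ADAM19: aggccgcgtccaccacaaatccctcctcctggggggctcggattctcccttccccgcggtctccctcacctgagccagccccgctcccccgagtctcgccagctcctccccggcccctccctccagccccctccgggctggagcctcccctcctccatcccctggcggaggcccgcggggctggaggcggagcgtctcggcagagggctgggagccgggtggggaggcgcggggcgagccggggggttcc
ADAM15: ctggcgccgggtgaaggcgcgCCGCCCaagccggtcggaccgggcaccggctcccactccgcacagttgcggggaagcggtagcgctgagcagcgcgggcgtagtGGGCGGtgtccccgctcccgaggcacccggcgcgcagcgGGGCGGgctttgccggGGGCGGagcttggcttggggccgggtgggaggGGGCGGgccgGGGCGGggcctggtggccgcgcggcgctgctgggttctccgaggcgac

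All 4 windows were rich in G and C, at 73.6, 75.6, 76.4 and 79.6%, against a median of 58% over all 35116 promoter windows of that length. ADAM12 held 3 GC boxes and no GCGTG, ADAM17 held 3 GC boxes and 1 GCGTG that adjoins the last of them, ADAM15 held 6 GC boxes, and ADAM19 held neither motif. Of all windows, 42.6% held a GC box, 32.2% a GCGTG, 6.57% the AP-1 motif TGANTCA and 10.7% the letters TATAAA. Sequences were found for 29 of the 44 genes. A GC box was present in 5 of 6 relatives that rose and in 4 of 5 that fell; the AP-1 motif in 1 of 6 (ADAMTS12) and in 0 of 5; GCGTG in 2 of 6 and in 1 of 5. Of 8 relatives not called, 7 held a GC box and 5 a GCGTG. Several called relatives, ADAM9, ADAM33, ADAMTS1 and ADAMTS9 among them, had no sequence. A link between these motifs and the changes was not tested. ADAM12 had no AP-1 or TATAAA match in its window, which says only that these letters are not there.

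The relatives did not move as a block. Of 43, 30 averaged 10 or more normalized reads and were tested; 19 of them (63.3%) passed an adjusted p of 0.05, 11 higher and 8 lower after knockdown. The background was high: 41.0% of all 19048 tested genes passed, 17.5% as higher and 23.5% as lower, and among tested protein-coding genes 48.6% passed (22.2% higher, 26.4% lower). Of the tested members, 0 averaged under 10 normalized reads in either group. The median log2 fold change of the 30 was 0.15, against -0.04 over all tested genes. The groups did not overlap in 22 of the 30 (13 higher, 9 lower), where 51.1% of all tested genes had no overlap. A change of 1 or more on the log2 scale, with the same adjusted p, was seen in 5 relatives (3 higher, 2 lower) and in 2.95% of all tested genes, and the largest of the 5, in ADAM32, was 1.21. No tested relative came near the 2.80 of ADAM12.

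**Figure D1:**
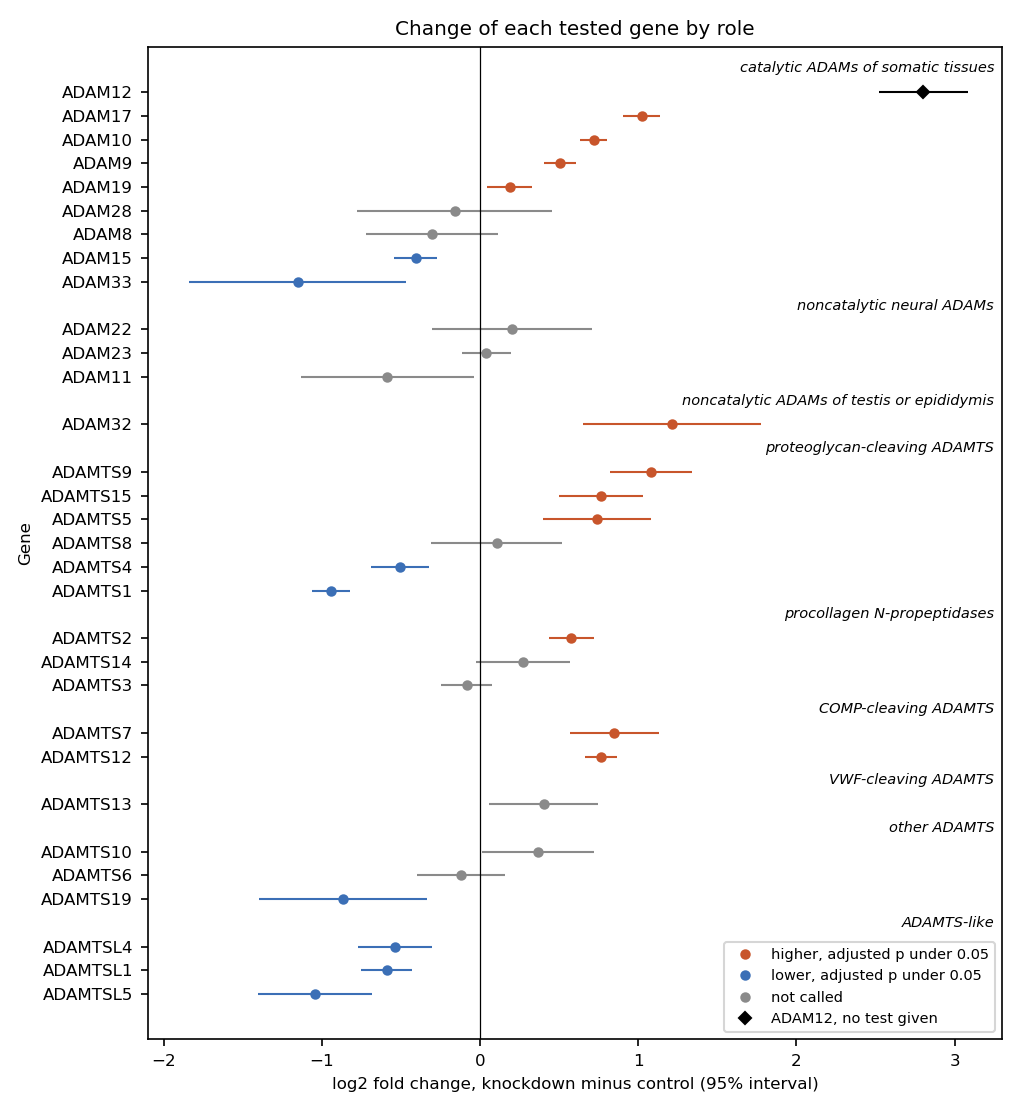
Log2 fold change of each tested gene (knockdown minus control, points) with its 95% interval (lines), grouped by known role; red and blue mark genes past an adjusted p of 0.05 as higher or lower, gray those not past it, and the black diamond ADAM12, for which no test is given. ADAM12 at 2.80 stands alone on the right, and the relatives lie between -1.15 (ADAM33) and 1.21 (ADAM32). The interval drawn for ADAM12 takes no account of its choice by its change and is not a test.

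By subfamily, 5 of 12 tested ADAM relatives rose and 2 fell, 6 of 15 tested ADAMTS genes rose and 3 fell, and all 3 tested ADAMTSL genes fell. A zinc-binding motif of the catalytic type was found in the translated sequence of 30 of the 44 genes; it was missing from 8 ADAMs, the 5 ADAMTSL proteins and ADAMTS8, which is a known protease, so lacking the searched pattern does not mean lacking activity. Among tested relatives with the motif, 10 rose, 5 fell and 7 were not called. Among those without it, 1 rose, 3 fell and 4 were not called. Of all tested protein-coding genes, 22.2% passed as higher and 26.4% as lower. The counts here and those by role below are to be read beside these shares, and the sets are small.

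**Figure D2:**
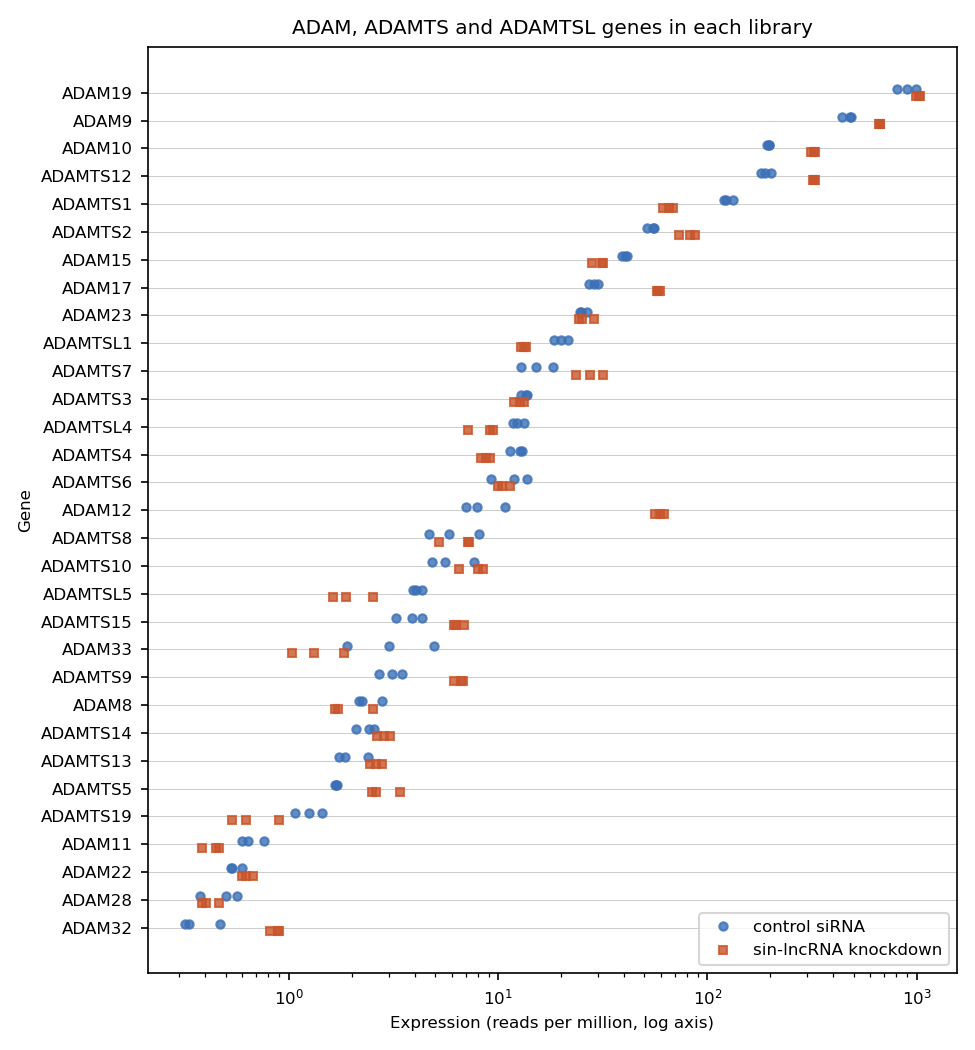
Expression of the 31 tested genes in each library, in RPM on a log axis, with control libraries as blue circles and knockdown libraries as red squares, sorted by level. In ADAM12 the knockdown squares (56.2 to 62.3) lie far to the right of the control circles (7.05 to 10.8), while for most other genes the groups lie close together.

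ADAM19, ADAM33 and ADAM8 were the tested relatives with proteins most identical to ADAM12, at 48.7, 44.8 and 41.4% of aligned positions, and none changed by as much as ADAM12 did. ADAM19, which sheds neuregulins, had the highest level per length of the whole family (117 RPKM in controls, 132 after knockdown). ADAM19 (ENSG00000135074.11, hg19 chr5:156822542-157002783) stood at 805, 992 and 900.2 RPM in controls and at 997, 1026 and 1039 after knockdown. The highest control value nearly met the lowest value after knockdown. Its log2 fold change was 0.19 (SE 0.06, limma adjusted p = 0.038). This call was lost with any 1 library left out other than control library 2, the adjusted p then being 0.0554 to 0.121, and without control library 1 the change was 0.11. It was also lost when the variance was modelled without a trend on expression (limma adjusted p = 0.141).

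ADAM33, a protease linked by genetic studies to asthma and made by airway mesenchymal cells, fell. ADAM33 (ENSG00000149451.13, hg19 chr20:3648612-3662893) stood at 4.96, 1.90 and 3.00 RPM in controls and at 1.03, 1.84 and 1.32 after knockdown, so that control library 2 nearly met knockdown library 2. Its log2 difference was -1.15 (SE 0.31, limma adjusted p = 0.012), and it passed no longer when the variance was modelled without a trend on expression (adjusted p = 0.066). ADAM8, known from leukocytes, stood at 2.17, 2.23 and 2.80 in controls and at 1.66, 2.52 and 1.71 after knockdown (ENSG00000151651.11, hg19 chr10:135075907-135090372). Its groups overlapped, and its log2 fold change of -0.30 had a 95% interval of -0.72 to 0.11 (limma adjusted p = 0.23); without knockdown library 2 it was -0.49 and passed (limma adjusted p = 0.0485).

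Of the 8 catalytic ADAMs of somatic tissues other than ADAM12, 4 rose (ADAM17, ADAM10, ADAM9 and ADAM19) and 2 fell (ADAM15 and ADAM33). ADAM17, which releases TNF and several EGF receptor ligands, had the highest change among them. ADAM17 (ENSG00000151694.8, hg19 chr2:9628615-9695921) stood at 28.8, 30.0 and 27.3 RPM in controls and at 59.2, 57.6 and 58.3 after knockdown. Every knockdown library was about double every control library, and the log2 difference was 1.02 (SE 0.05, limma adjusted p = 2.9e-07). The end of ADAM17 overlaps IAH1 on the opposite strand over 8058 bases; IAH1 fell by 0.22 on the log2 scale (limma adjusted p = 0.0079), and whether reads were assigned by strand is not given in the sources used here.

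ADAM10, the main sheddase of Notch receptors and the alpha-secretase of the amyloid precursor, also rose. ADAM10 (ENSG00000137845.10, hg19 chr15:58887403-59042177) stood at 198, 196.5 and 192 RPM in controls and at 327, 314 and 324 after knockdown. The libraries of each group lay close together, and the log2 fold change was 0.72 (SE 0.04, limma adjusted p = 3.9e-07). ADAM9, a shedding enzyme that also binds integrins, was second in the family by level per length (67.9 RPKM in controls, 96.3 after knockdown). ADAM9 (ENSG00000168615.7) stood at 441, 488 and 479.5 RPM in controls and at 666, 663 and 668 after knockdown. The 2 groups were separate, and the log2 difference was 0.51 (SE 0.05, limma adjusted p = 1.0e-05).

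ADAM15, an adhesion-linked ADAM with an RGD integrin-binding sequence, fell; its change was under the size set for naming, and it was named after its values were seen. ADAM15 (ENSG00000143537.9, hg19 chr1:155023042-155035252) stood at 41.4, 40.4 and 39.2 RPM in controls and at 28.1, 31.4 and 31.8 after knockdown. The groups did not overlap, and the log2 fold change was -0.41 (SE 0.06, limma adjusted p = 0.00038). ADAM28, best known from lymphocytes, stood at 0.378 to 0.566 RPM in controls and at 0.384 to 0.463 after knockdown, and did not pass (log2 fold change -0.16).

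Among the ADAMs without the catalytic motif, the 3 neural members, which bind LGI proteins or integrins at nerve cells, did not pass. ADAM23 stood at 24.4 to 28.6 RPM over all 6 libraries, and its log2 fold change of 0.04 had a 95% interval of -0.12 to 0.20. ADAM22 (0.20) and ADAM11 (-0.58, limma adjusted p = 0.082) did not pass either, both at under 1 RPM. ADAM32, a gene known from testis, rose at a very low level, from 10 to 16 reads per control library to 19 to 25 per knockdown library (log2 fold change 1.21, SE 0.25, limma adjusted p = 0.0030). It begins 1.84 kb behind the end of ADAM9 on the same strand, and it overlaps the ribosomal pseudogene RPL3P10 (22.1 and 20.5 RPM) on the other strand.

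The ADAMTS proteases that cleave aggrecan and versican split, with 3 of 6 tested members higher and 2 lower. ADAMTS1, which cleaves versican and binds VEGF, had the highest level per length of this group in controls (17.7 RPKM, 9.20 after knockdown). ADAMTS1 (ENSG00000154734.10, hg19 chr21:28208066-28217728) stood at 132, 119 and 123 RPM in controls and at 68.2, 65.4 and 61.5 after knockdown. All knockdown libraries lay far below all controls, and the log2 difference was -0.94 (SE 0.06, limma adjusted p = 6.5e-07). ADAMTS5, the main aggrecanase of mouse cartilage, lies 72.5 kb away on the same strand and went the other way. ADAMTS5 (ENSG00000154736.5, hg19 chr21:28290231-28338832) stood at 1.67, 1.70 and 1.67 RPM in controls and at 3.41, 2.60 and 2.49 after knockdown. Its groups were separate at a far lower level than those of ADAMTS1, and the log2 difference was 0.74 (SE 0.16, limma adjusted p = 0.0031).

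ADAMTS9, a versican-cleaving protease, had the largest rise of the tested ADAMTS genes. ADAMTS9 (ENSG00000163638.9, hg19 chr3:64501333-64673676) stood at 3.47, 3.13 and 2.70 RPM in controls and at 6.68, 6.19 and 6.77 after knockdown. The groups were far apart, and the log2 difference was 1.08 (SE 0.12, limma adjusted p = 4.1e-05). ADAMTS15, also a versican-cleaving enzyme (ENSG00000166106.2, hg19 chr11:130318869-130346532), stood at 4.32, 3.86 and 3.24 in controls and at 6.18, 6.28 and 6.84 after knockdown. Its groups did not overlap, and the log2 difference was 0.77 (SE 0.12, limma adjusted p = 0.00055). ADAMTS8, which starts 19980 bases from ADAMTS15 on the opposite strand, overlapped between groups and did not pass (log2 fold change 0.10).

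ADAMTS4, the cytokine-induced aggrecanase, fell. ADAMTS4 (ENSG00000158859.9, hg19 chr1:161154098-161168846) stood at 13.1, 12.7 and 11.3 RPM in controls and at 9.14, 8.71 and 8.26 after knockdown. The groups were separate, and the log2 difference was -0.50 (SE 0.08, limma adjusted p = 0.00074). ADAMTS4 overlaps a gene on the opposite strand over 1953 bases, and that gene went from 104.7 to 28.3 RPM, so without a stated strand setting reads of the shared stretch cannot be told apart.

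Of the 3 procollagen N-propeptidases, which trim the amino end of fibrillar procollagens, 1 rose. ADAMTS2, the enzyme lost in dermatosparactic Ehlers-Danlos syndrome (ENSG00000087116.9, hg19 chr5:178537852-178772431), stood at 55.4, 51.5 and 55.2 RPM in controls and at 73.2, 86.9 and 82.2 after knockdown. Its groups did not overlap, and the log2 difference was 0.58 (SE 0.06, limma adjusted p = 5.1e-05). Neither ADAMTS14 (0.27, limma adjusted p = 0.13) nor ADAMTS3 (-0.08, limma adjusted p = 0.40) passed. Per length, ADAMTS2 (6.19 RPKM in controls) exceeded both in controls.

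Both genes grouped here as proteases of cartilage oligomeric matrix protein (COMP) rose. The group need not hold every family member that cleaves COMP, and the COMP RNA itself was under the filter. By level per length ADAMTS12 was the third in the family (19.4 RPKM in controls, 32.9 after knockdown). ADAMTS12 (ENSG00000151388.6, hg19 chr5:33523640-33892297) stood at 179.5, 201 and 189 RPM in controls and at 326, 318 and 321.5 after knockdown. The control libraries were all under the knockdown libraries by more than 100 RPM, and the log2 difference was 0.76 (SE 0.05, limma adjusted p = 7.7e-07). ADAMTS7, a protease tied by genetic studies to coronary disease, was lower in level and more variable. ADAMTS7 (ENSG00000136378.10, hg19 chr15:79051545-79103773) stood at 18.2, 12.9 and 15.1 in controls and at 23.7, 31.7 and 27.6 after knockdown. No control library reached a knockdown library, and the log2 difference was 0.85 (SE 0.13, limma adjusted p = 0.00038). ADAMTS7 has pseudogene copies, and it overlaps MORF4L1, a far more abundant gene that rose by 0.38 on the log2 scale (limma adjusted p = 2.9e-05), over 945 bases on the opposite strand; how shared reads were counted is not given in the sources used here.

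The remaining tested ADAMTS genes gave 1 call. ADAMTS19 fell (log2 fold change -0.86, SE 0.24, limma adjusted p = 0.014) at about 1 RPM. Its call was lost without control library 1 (-0.76, limma adjusted p = 0.0544), control library 3 (0.0516) or knockdown library 3 (-0.70, 0.0548). ADAMTS13, which cleaves von Willebrand factor (0.40, limma adjusted p = 0.060), ADAMTS10, which binds fibrillin (0.37, 0.093), and ADAMTS6 (-0.12, 0.48) did not pass. Without control library 1 these 3 passed, at 0.54, 0.55 and -0.28, with limma adjusted p of 0.019, 0.0083 and 0.046. ADAMTS13 overlaps REXO4, which fell by 0.51 on the log2 scale (limma adjusted p = 0.00028), over 3687 bases on the opposite strand.

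All 3 tested ADAMTSL genes fell, where 26.4% of all tested protein-coding genes passed as lower. ADAMTSL5, which binds fibrillin and heparin, had the largest fall of them. ADAMTSL5 (ENSG00000185761.6, hg19 chr19:1505017-1513603) stood at 4.35, 3.93 and 4.03 RPM in controls and at 1.88, 1.62 and 2.53 after knockdown. The groups were separate, and the log2 difference was -1.04 (SE 0.16, limma adjusted p = 0.00052). ADAMTSL1, also called punctin (ENSG00000178031.11, hg19 chr9:18473892-18910948), stood at 18.4, 21.5 and 20.01 in controls and at 13.6, 12.8 and 13.4 after knockdown. Its groups did not overlap, and the log2 difference was -0.59 (SE 0.07, limma adjusted p = 0.00011). ADAMTSL4, mutated in inherited dislocation of the eye lens (ENSG00000143382.9, hg19 chr1:150521884-150533413), stood at 13.2, 11.8 and 12.3 in controls and at 7.22, 9.18 and 9.44 after knockdown. These groups, too, were separate, and the log2 difference was -0.54 (SE 0.11, limma adjusted p = 0.0022).

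By level per length, ADAM19, ADAM9 and ADAMTS12 came first in both groups. ADAM19, ADAM9, ADAMTS12, ADAM10, ADAMTS1 and ADAMTS2 had the highest means over both groups. ADAM19 alone took 39.4 to 43.6% of the family's reads in controls and 36.3 to 37.1% after knockdown. In controls, ADAMTS12 (19.4 RPKM) and ADAMTS1 (17.7) were close together, and after knockdown they were far apart (32.9 and 9.20), which put ADAMTS1 level with ADAMTS2 (9.26). ADAM12 moved from below ADAM15 (6.13 in controls, 4.62 after knockdown) and ADAM17 (2.67 and 5.43) to above both, at 6.005. In RPM, ADAM12 (59.2) and ADAM17 (58.4) were nearly equal after knockdown, so their gap per length rests largely on the exon lengths used.

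**Figure D3:**
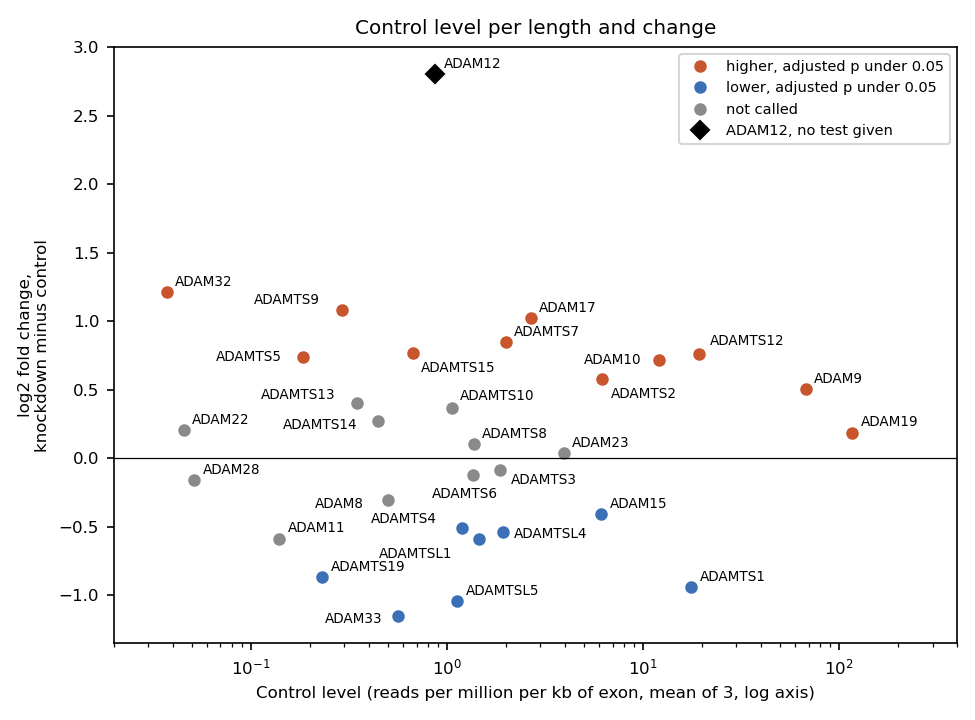
Mean control level in RPKM (log axis) against the log2 fold change after knockdown, 1 point per tested gene, with red for higher, blue for lower, gray for not called and a black diamond for ADAM12. Genes that rose and genes that fell occur at low and at high control levels, and ADAM12 lies above all others at 2.80 from a control level of 0.873.

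The 13 members under the filter had few or no reads. ADAM2, ADAM7, ADAM18, ADAM29 and ADAM30, known from testis or epididymis, had 0 reads in every library, which allows up to 0.0596 to 0.134 RPM depending on the library (3 reads, counting error only). ADAM20, ADAMTS16, ADAMTS17, ADAMTS20, ADAMTSL2 and ADAMTSL3 had at most 9 reads in any library. ADAMTS18 had 0, 0 and 1 reads in controls and 4, 6 and 6 after knockdown, and ADAM21 had 3, 1 and 2 against 10, 3 and 12. Both passed when no filter was applied (limma adjusted p = 0.00032 and 0.0089), on counts too low to give a fold.

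Genes that act with these proteases were taken from 5 lists (inhibitors, partners of ADAM10 and ADAM17, processing and clearance, shed membrane proteins, and matrix proteins). Of 64 genes in the table, 53 were tested and 35 passed (66%), 15 higher and 20 lower, where the share over all genes was 41.0%. The lists held only protein-coding genes, and of all tested protein-coding genes 48.6% passed (22.2% higher, 26.4% lower). By list, 65.2 to 66.7% of the tested genes passed, and the counts below are to be read beside those shares. The lists were chosen with earlier results of these data known.

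Of 6 inhibitors tested, 3 TIMPs fell and A2M rose. TIMP2, which inhibits matrix metalloproteases and helps activate one of them, stood at 808, 787 and 786 RPM in controls and at 433, 403 and 395 after knockdown. Its groups were far apart, with a log2 fold change of -0.95 (limma adjusted p = 1.3e-07). TIMP3, the TIMP that blocks ADAM17 and the aggrecanases, fell less (-0.32, limma adjusted p = 0.00019), as did TIMP1 (-0.46, limma adjusted p = 3.5e-05), while RECK and TIMP4 did not pass. A2M, a secreted trap for proteases, stood at 2.38, 2.03 and 1.59 in controls and at 2.87, 3.07 and 3.13 after knockdown. Its log2 fold change was 0.62 (limma adjusted p = 0.011), and its call was lost without control library 3 (0.46, limma adjusted p = 0.052).

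Among 6 tested partners that carry ADAM10 or ADAM17 to the cell surface, 4 fell and 0 rose. Of all tested protein-coding genes, 26.4% passed as lower and 22.2% as higher. ADAM10 and ADAM17 themselves rose. FRMD8, which stabilises the iRhom and ADAM17 complex, stood at 66.05, 54.3 and 60.0 RPM in controls and at 36.2, 41.5 and 40.0 after knockdown. Its groups were separate, with a log2 fold change of -0.61 (limma adjusted p = 0.00010). The others that fell were RHBDF2 (iRhom2), TSPAN14 and TSPAN17, and the small change in TSPAN17 lost its call without control library 2 or 3 or without knockdown library 1 or 2, the limma adjusted p then being 0.0919 to 0.109. It was lost, too, with library totals (0.0545), quantile normalization (0.0872) or no variance trend (0.104). Of 6 genes that remove the prodomain, add sugars to thrombospondin repeats or clear ADAMTS proteases, 3 rose and 1 fell. B3GALTL, a glucosyltransferase that extends the fucose on these repeats, stood at 7.93, 8.22 and 7.91 in controls and at 13.8, 13.8 and 15.3 after knockdown. POFUT2, which adds that fucose, rose by 0.48 on the log2 scale (limma adjusted p = 2.1e-05), and the change of B3GALTL was 0.83 (limma adjusted p = 1.3e-05). FURIN, the convertase that removes prodomains, stood at 269, 245 and 258 in controls and at 158, 180 and 166 after knockdown, with a log2 fold change of -0.62 (limma adjusted p = 9.7e-06).

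Of 23 tested membrane proteins known to be shed by ADAMs, 5 rose and 10 fell. ICAM1, a leukocyte adhesion molecule, stood at 39.8, 41.1 and 39.8 RPM in controls and at 84.0, 104.9 and 86.6 after knockdown. The groups were far apart, with a log2 fold change of 1.18 (limma adjusted p = 1.0e-06). CX3CL1, a membrane-bound chemokine shed by ADAM10 and ADAM17, stood at 3.20, 2.50 and 2.74 in controls and at 1.12, 1.02 and 0.855 after knockdown. Its groups were separate in the other direction, with a log2 fold change of -1.47 (limma adjusted p = 6.9e-05). The small rise of AREG lost its call with any 1 library left out other than control library 1 (limma adjusted p = 0.0510 to 0.148) and without a variance trend (0.131), and NOTCH1 passed as lower without control library 2 (-0.25, limma adjusted p = 0.037). These are RNA levels, and shedding was not measured.

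Of 12 tested matrix proteins that ADAMTS or ADAMTSL proteins process or bind, 6 rose and 2 fell. VCAN (versican), a substrate of ADAMTS1, ADAMTS4, ADAMTS5, ADAMTS9 and ADAMTS15, stood at 823.5, 877 and 841 RPM in controls and at 1649, 1454 and 1560 after knockdown. Its groups did not overlap, with a log2 fold change of 0.87 (limma adjusted p = 6.0e-07). COL1A1, a chain of the type I procollagen that ADAMTS2 trims, stood at 7037, 6125 and 6690 in controls and at 3419, 3848 and 3529 after knockdown. Its groups were separate in the other direction, with a log2 fold change of -0.88 (limma adjusted p = 2.0e-06), and COL1A2, the other chain, fell as well (-0.77, limma adjusted p = 3.8e-07). Of the other fibrillar procollagen chains on the list, COL3A1 rose by 0.38 and COL5A1 by 0.53 on the log2 scale (limma adjusted p = 0.00023 and 3.0e-05). COL2A1 was under the filter, and chains outside the list were not examined. VWF lost its call with any 1 library left out other than knockdown library 1 (limma adjusted p = 0.0551 to 0.113), and BGN and FBN2 passed as higher without control library 1 (0.22 and 0.21, limma adjusted p = 0.0093 and 0.013).

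**Figure D4:**
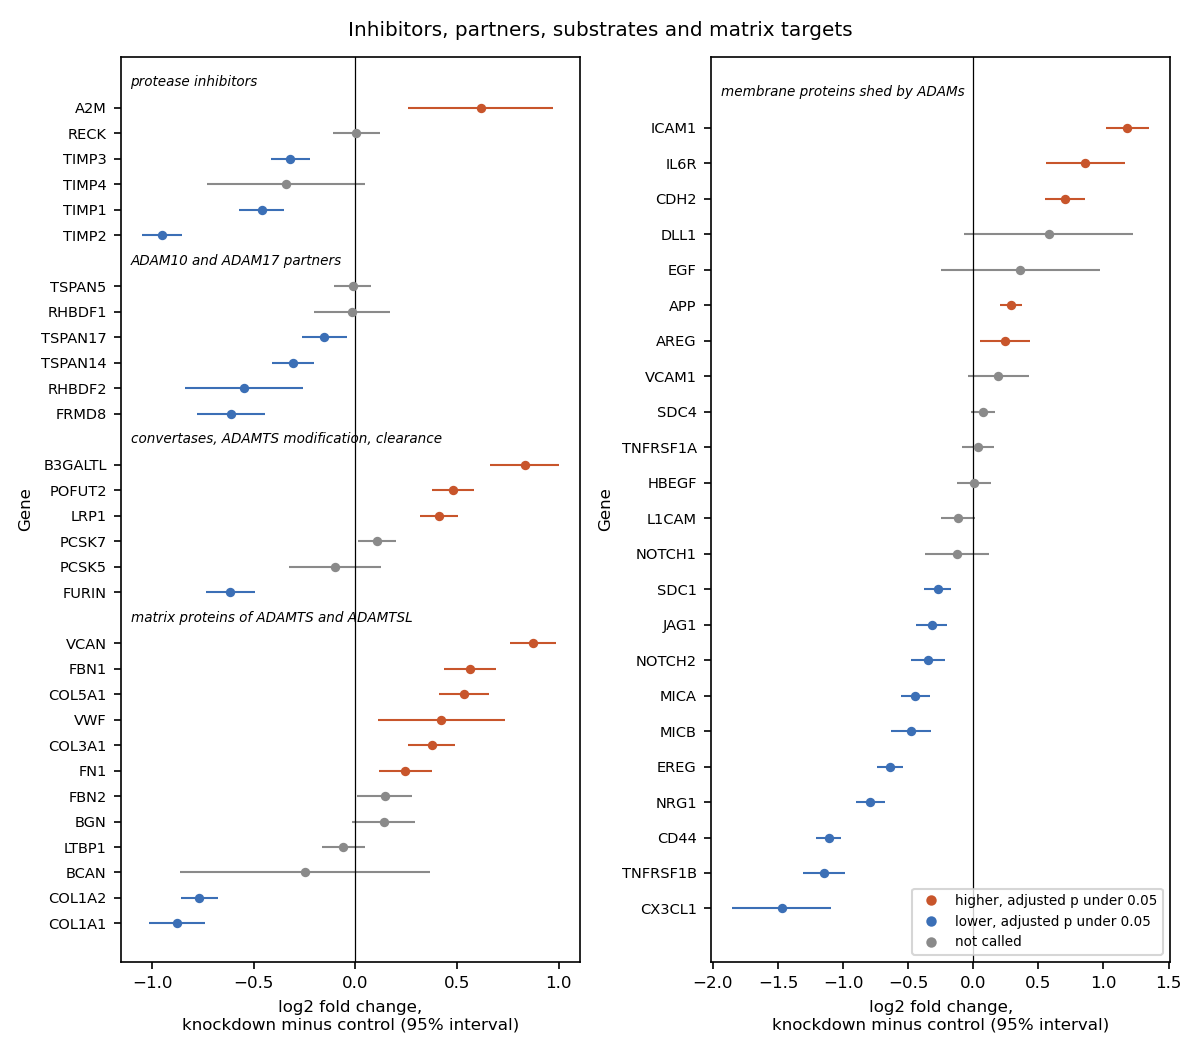
Log2 fold change (knockdown minus control, points) with its 95% interval (lines) for the 53 tested genes of the inhibitor, partner, processing and matrix lists (left) and of the shed membrane proteins (right), in red for higher, blue for lower and gray for not called. TIMP2 (-0.95) and COL1A1 (-0.88) mark the lower end of the left panel and VCAN (0.87) the upper, and the right panel spans -1.47 (CX3CL1) to 1.18 (ICAM1).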

How the data were processed

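PolyA RNA of 6 libraries was sequenced as 50-base single reads, per the labels' protocols. Bowtie2, featureCounts and hg19 are named in the submitters' processing notes, with no versions; strand setting, annotation release and handling of multiply mapped reads are not given in the sources used here. The authors deposited 1 table of log2 values per gene and library; its name speaks of normalized counts. With a library size and 0.5 added reads taken back out, 100% of values were whole reads (tolerance 0.01 reads), so the table holds log2 RPM. A plain normalized unit had been thought possible in planning, and the test was kept. RPM values here use the authors' scaling, without the offset.

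Genes with a mean of at least 10 normalized reads (19048) were fitted with limma 3.58.1 in R 4.3.3, with a variance trend, no replicate term and Benjamini-Hochberg adjustment over all of them; a call is an adjusted p under 0.05. Differences are knockdown minus control on this log2 scale, which understates changes of low genes. An exact permutation test of 3 against 3 libraries cannot go below 0.1 and was not used. On simulated counts (19048 genes, 200 changed), 47.8%, 85.1% and 97.0% of genes changed by 0.5, 1 and 2 on the log2 scale were recovered in the simulated direction. Unchanged genes made up 6.13% of the calls. The simulated spread was set by hand, not estimated from these libraries. Far fewer genes were changed than the 41.0% called in the data, so these rates are not estimates for this comparison. No pair of replicates was alike within counting noise (chi-square per degree of freedom 2.87 to 11.0).

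Group and replicate number came from the labels; the ending of the siRNA name in the knockdown columns is not explained there. Values per library are given for ADAM12, for relatives past the threshold with an absolute log2 change of at least 0.5 and a mean of at least 50 normalized reads, for the 6 highest per length and for the 3 tested relatives most identical to ADAM12; list genes named in full are those with the largest rise and fall past the threshold and a mean of at least 50 normalized reads. Members and lists were chosen with earlier results of these data known. Exon lengths and translated coding sequences came from GENCODE 29, matched by gene ID for all 44 genes. A length was the union of all annotated exons of a gene, so ranks per length depend on that choice. Promoters came from RefSeq (GRCh38.p14), matched by symbol, and no coordinate was converted. Identity was computed on pairwise alignments made with Biopython 1.88.

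Alternatives were the replicate number as a block, other filters, pseudocounts, scalings and variance models, voom, other thresholds and leaving out each library. Thinning every library to the smallest total was added after the data had been seen.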

Additional observations from a re-analysis of the deposited data

How the results depend on the processing

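Across 18 other fits, 17 to 21 relatives passed, 17 to 20 with 1 library left out, and 16 of the 19 called relatives kept call and direction in every fit that tested them; the others were ADAM19, ADAM33 and ADAMTS19. A called relative changed direction in 0 fits. ADAM11, not called, passed without a variance trend (-0.58, limma adjusted p = 0.014), and ADAMTS13 after quantile normalization (0.44, 0.038). ADAM12 ranged from 2.67 to 2.98 with 1 library left out and from 2.78 to 2.84 otherwise. After thinning to equal depth, 19 of 19 relatives kept their calls. Same-numbered control and knockdown libraries did not deviate together (correlations -0.15, -0.18 and 0.07), and pairs of other numbers ranged from -0.08 to 0.20. Deviations from means of 3 libraries cannot settle whether the numbers pair the libraries. With the replicate block, 19 relatives passed (11 higher, 8 lower), as did 32 of the pathway genes and 6454 of all genes. TSPAN17, VWF and AREG then lost their calls. Requiring a log2 change of 1 or more left 5 relatives (3 higher, 2 lower), 4 pathway genes (1 higher, 3 lower) and 561 of all genes (322 higher, 239 lower); an adjusted p under 0.01 left 5195 of all genes, 2955 of them lower, both by construction. Higher calls were 3325 of 7805 over all genes, and 3798 of 7692 after quantile normalization. FN1 was not called there, at a log2 fold change of 1.2e-16. Quantile normalization gives a gene of equal rank in every library the same value, so this loss says nothing about FN1. PCSK7 passed with quantile normalization and with library totals, and TIMP4 without a variance trend. VWF was not called without a filter or after thinning.

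The genes that changed sign in some fit were not called with all libraries. These were ADAMTS8 (-0.082 to 0.32 with 1 library left out, lowest without control library 2), ADAM23 (-0.027 to 0.087, lowest without knockdown library 1) and ADAMTS6 (-0.28 to 0.010, highest without control library 2). With library totals, RHBDF1 was 0.0030 and TSPAN5 0.0046; after quantile normalization LTBP1 was 0.0013; after thinning HBEGF was -0.015. With 1 library left out, RHBDF1 ranged from -0.10 to 0.054, TSPAN5 from -0.039 to 0.0026, HBEGF from -0.027 to 0.043, TNFRSF1A from -0.0067 to 0.088 and RECK from -0.028 to 0.036. The causes were not tested. The planned edgeR and DESeq2 fits were not run; the recovered whole reads were fitted with voom. Depth limits the genes at a few reads per library.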

Other observations

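Outside the 44 genes, 1 other gene with an ADAM name was expressed high enough to test. The pseudogene ADAM1A stood at 2.17, 2.23 and 2.27 RPM in controls and at 2.46, 2.69 and 2.42 after knockdown. Its groups did not overlap, but the log2 fold change of 0.19 (SE 0.13, limma adjusted p = 0.28) did not pass. ADAMDEC1, a macrophage-associated relative of the ADAMs, had 0 reads in every library. The antisense RNA ADAMTS9-AS2 had 7 to 14 reads per library in controls and 6 to 14 in the shallower knockdown libraries. Its scaled means were 0.26 and 0.34 RPM, and its groups overlapped. It was under the filter and not tested, and ADAMTS9 itself rose.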
